A study of Mus musculus with 18 samples.

Results

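The comparison of RBPJ F261A/A284V with wild-type RBPJ (RBPJ WT) rests on 8 of the 18 RNA sequencing libraries of the series, 4 for each form. All came from E2-10HA, a mouse hybridoma line described as mature T cells, which had been depleted of the cells' own RBPJ before either form was put back. RBPJ WT cells carried Flag-tagged mouse RBPJ on the retroviral plasmid pMY-Bio, whose IRES also expresses a blasticidin resistance gene. RBPJ F261A/A284V cells carried the same construct with both substitutions, and cells with the empty plasmid (empty vector, 4 libraries) served as the control. All 3 groups were thus RBPJ-depleted, infected and selected with blasticidin, and all came from 1 line. Whether the replicates came from separate cultures or separate infections is not stated by the labels. The p-values therefore reflect the spread of these samples alone, and that spread may be technical. Of 24391 genes in the table, 11558 had a normalised read count of at least 10 in at least 4 of the 8 libraries and were tested.

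RBPJ is the DNA-binding factor of the Notch pathway. When a Notch receptor is cleaved, its intracellular part binds RBPJ and recruits coactivators that switch target genes on; without it, RBPJ can hold genes down together with corepressors such as SPEN and, as has been described, L3MBTL3. Both substituted residues lie in the part of RBPJ that touches Notch and several corepressors. In T cells the pathway is best known for early lineage choice in the thymus, and Hes1, Notch1 and the lysosomal protease gene Lgmn are among the genes studied as its targets.

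The libraries held between 5923799 and 7921533 reads in replicates 1 and 2, and between 3553505 and 4239479 in replicates 3 and 4. The first principal component of the 8 libraries, with 62.8% of the variance, separated these 2 sets of replicates, and the second, with 18.0%, separated RBPJ F261A/A284V from RBPJ WT. The labels give no batch, and the divide was a term in the fit. Within a set, RBPJ WT replicates 1 and 2 differed by less than the sampling noise, at a chi-square of 0.79 for each degree of freedom. RBPJ F261A/A284V replicates 3 and 4 (0.86) and empty vector replicates 1 and 2 (0.892) also fell under the value of 1 that sampling noise alone gives. Each such pair was averaged and counted as 1 sample, which left 3 samples per group; the other pairs of a set stood at 1.05 to 2.16, and no source used here tells whether a near-identical pair is a single library that was sequenced again. T cell genes were present in both groups: 10 of 13 markers were tested, with summed values of 4373 to 5790 in RBPJ WT and of 4193 to 5836 in RBPJ F261A/A284V, while Cd8a, Cd8b1 and Cd5 stayed at or below 6.14 in every library.

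Rbpj RNA did not differ between the 2 forms by the test. It stood at 644, 627, 802 and 818 in RBPJ WT replicates 1 to 4 and at 729, 685, 922 and 919 in RBPJ F261A/A284V replicates 1 to 4. Empty vector libraries held 317, 317, 255 and 272, so both groups lay above the control in every library. The groups overlapped, with each mutant library above the RBPJ WT libraries of its own set. The log2 difference (RBPJ F261A/A284V minus RBPJ WT, on the log2(value + 1) scale used throughout) was 0.10, with a 95% interval of -0.11 to 0.31 and an adjusted p of 0.756. Within the sets it was 0.15 in replicates 1 and 2 and 0.18 in replicates 3 and 4. Leaving out 1 sample turned the sign in 2 cases, to -0.03 without RBPJ WT replicates 1 and 2 and to -0.05 without RBPJ F261A/A284V replicates 3 and 4. Each of these is the only sample of its form in its set, so the fit then takes the set effect partly from the empty vector, where Rbpj was lower in replicates 3 and 4, while it was higher there in both forms. With the 6 samples of both forms alone the difference was 0.17 (adjusted p 0.398). Gene-level values do not tell the 2 forms apart, so the substitutions themselves were not seen in these data.

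With RBPJ F261A/A284V, 121 genes were higher (1.05% of the genes tested) and 100 were lower (0.865%) than with RBPJ WT, at a limma adjusted p under 0.05, so that 221 (1.91%) passed in either direction. The rise was at least 2-fold for 36 genes and at least 4-fold for 13, and the fall for 25 and 4. The lymphocyte GTPase genes of the Gimap family led the rises, with the protease genes Gzmb and Lgmn, and the receptor genes Ccr2 and Cd4 and the adaptor gene Grb10 were among the largest falls. All 4 mutant libraries lay beyond all 4 RBPJ WT libraries for 74 of the genes that were higher and 56 of those that were lower; over all genes tested, 1.92% had the mutant libraries all above and 1.77% all below, or 3.69% in either direction. The median log2 difference of all genes tested was 0.016. In bulk RNA, fewer cells expressing a gene and less RNA per cell cannot be told apart. The counts rested on the sample of RBPJ F261A/A284V replicates 3 and 4, without which 29 genes were higher and 38 lower, and 25 of the 56 called genes that the rule for named genes chose lost their call; it is the only mutant sample of its set. With the replicate number as a block over all 12 libraries (the paired fit), 549 genes were called, 288 of them higher. That fit counts near-identical libraries separately, as does the set term over all 12 libraries, with 594 genes called.

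**Figure D1:**
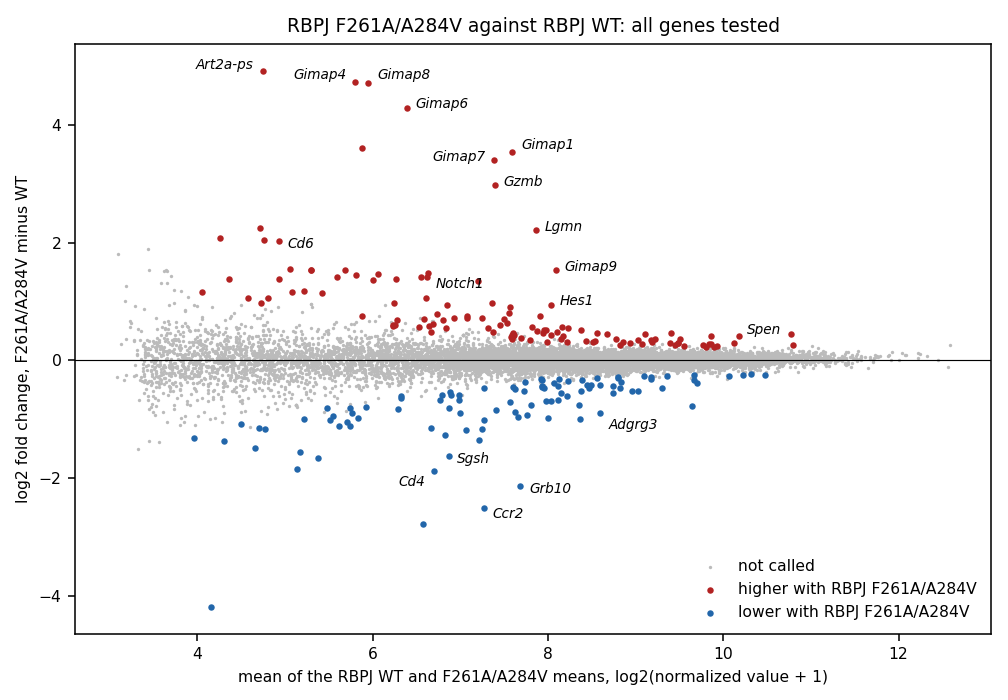
Each point is 1 of the 11558 genes tested; the horizontal axis gives the mean of the 2 group means as log2(normalised value + 1) and the vertical axis the fitted log2 fold change of RBPJ F261A/A284V minus RBPJ WT. Red points are the 121 genes called higher and blue points the 100 called lower; Gimap genes, Art2a-ps and Gzmb stand at the top, and Ccr2, Grb10 and Cd4 are among the lowest.

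Of 23 genes listed as Notch targets, 15 were tested, with a median log2 difference of 0.13. With the mutant 4 were higher, none was lower and 11 did not pass the test, where 1.91% of all genes tested were called. Hes1, a transcriptional repressor and the classical Notch target, stood at 142, 150.2, 215 and 216 in RBPJ WT and at 282, 266, 434 and 435 in RBPJ F261A/A284V. Every mutant library was above every RBPJ WT library, and the difference was alike in both sets, at 0.90 and 1.01. The fitted log2 difference was 0.93 (SE 0.0779, adjusted p 1.38e-07). Empty vector libraries held 243, 228, 315 and 316, between the 2 RBPJ groups in each set; the log2 difference of mutant minus empty vector was 0.34 (adjusted p 0.138).

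Notch1, which encodes a receptor of the pathway and is itself a target, stood at 73.7, 67.8, 40.8 and 28.1 with RBPJ WT and at 142, 203, 87.8 and 112 with the mutant. The groups did not overlap, although the mutant libraries of replicates 3 and 4 were close to the RBPJ WT libraries of replicates 1 and 2. Its log2 difference was 1.42 (SE 0.162, adjusted p 1.45e-05), and the empty vector libraries held 177, 178, 122 and 113. Lgmn, the lysosomal asparaginyl endopeptidase legumain, stood at 102, 101, 82.8 and 60.4 in RBPJ WT and at 377, 360.2, 417 and 392 in RBPJ F261A/A284V. It was higher in all 4 mutant libraries, at a log2 difference of 2.21 (SE 0.127, adjusted p 3.17e-10), and its empty vector values of 349, 398, 409 and 393 were close to those of the mutant. Jag1, a Notch ligand, was low, at 17.1, 20.3, 17.8 and 11.2 against 29.4, 45, 23.1 and 38.2, with a log2 difference of 0.97 and an adjusted p of 0.0427. That call was lost when any of 4 samples was left out, with an adjusted p between 0.101 without RBPJ WT replicate 4 and 0.596 without RBPJ F261A/A284V replicates 3 and 4.

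Among 32 genes of Notch receptors, ligands and their processing, 27 were tested and 3 were higher, namely Notch1, Jag1 and Aph1b, a subunit of gamma-secretase, the protease that releases the Notch intracellular part. None of the list was lower, its median was 0.04, and over all genes tested 1.05% were higher. Aph1b stood at 273, 276, 169 and 184 with RBPJ WT and at 332, 347, 239 and 285 with the mutant. The groups overlapped across the sets and were apart within each, and the log2 difference was 0.44 (SE 0.0805, adjusted p 0.0031, or 0.202 without RBPJ F261A/A284V replicates 3 and 4). Hes5, Hey1, Hey2, Heyl, Nrarp and Dtx1, further genes used as Notch targets, Nrarp and Dtx1 among them in T lineage cells, were below the limit for testing.

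Corepressors and cofactors of RBPJ showed small differences. Of 28 listed, 23 were tested, with 2 higher, 1 lower (1.91% called over all genes tested) and a median of 0.06. Spen, which encodes a large corepressor that binds RBPJ, stood at 997, 988, 1011 and 923 with RBPJ WT and at 1389, 1379, 1210.3 and 1251 with the mutant. All mutant libraries were above all RBPJ WT libraries, by 0.42 on the log2 scale (SE 0.0594, adjusted p 0.000197), and the empty vector libraries held 1339, 1342, 1346 and 1304. L3mbtl3, which encodes an MBT domain protein, stood at 534, 539, 546 and 489 and 639.9, 633, 727 and 760.0 in the same order, also without overlap. Its log2 difference was 0.37 (SE 0.0683, adjusted p 0.00351), and 0.25 (adjusted p 0.362) without RBPJ F261A/A284V replicates 3 and 4. Tle4, a corepressor of the Groucho family, was lower, at 743, 760.4, 675 and 666 against 660.3, 660.1, 533 and 529. The difference was -0.27 (adjusted p 0.0114), and the adjusted p was 0.0513 without RBPJ WT replicate 3 and 0.365 without RBPJ F261A/A284V replicates 3 and 4.

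All 7 tested Gimap genes were higher with the mutant, with a median log2 difference of 3.6 and a range of 1.54 to 4.72. These genes encode GTPases of immunity-associated proteins, which act in lymphocyte survival, and they follow one another on mouse chromosome 6, with no other tested gene between them in the RefSeq order (GRCm38.p6). The list was drawn up with this result known, and over all genes tested 1.05% were higher. The other listed member, Gimap3, was below the limit for testing. Gimap4 and Gimap8 were below 10 in every RBPJ WT library, and Gimap5 and Gimap6 in some. These genes passed the filter only through their mutant libraries, so the filter itself favours a rise in them, and the count is a description. Gimap8 stood at 4.78, 3.17, 2.55 and 4.22 in RBPJ WT and at 88.1, 92.6, 168 and 179 in RBPJ F261A/A284V. Gimap6 stood at 6.83, 6.34, 10.2 and 7.03 and 117, 133, 209 and 237, and Gimap4 at 3.41, 6.34, 1.27 and 2.81 and 103, 101, 122 and 107, in the same order. In these 3 genes no RBPJ WT library exceeded 10.2, and the mutant libraries lay between 88.1 and 237.

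The fitted log2 differences were 4.72 for Gimap8 (SE 0.247, adjusted p 8.86e-11), 4.72 for Gimap4 (SE 0.266) and 4.28 for Gimap6 (SE 0.178). Gimap1 stood at 34.8, 44.4, 26.8 and 25.3 with RBPJ WT and at 283.9, 276, 477 and 525 with the mutant, a log2 difference of 3.54. Gimap7 stood at 24.6, 33.6, 35.7 and 26.7 and 259.9, 230.2, 423 and 410.1, a difference of 3.41, and Gimap5 at 6.14, 12, 3.82 and 12.7 and 107, 95.1, 123 and 118, a difference of 3.60. Gimap9 was the member with the highest values under RBPJ WT, 139.9, 139, 141 and 156, and reached 358, 326, 499 and 512 with the mutant, a difference of 1.54. No Gimap gene had overlapping groups, and each kept its call under every alternative that was run. Empty vector libraries held 77.4, 84.6, 75.3 and 76.4 for Gimap8, 78, 59.3, 47.9 and 61.1 for Gimap4, and 324, 341, 438 and 455 for Gimap1. No Gimap gene differed between mutant and empty vector by the test (adjusted p 0.776 or above). The log2 differences of mutant minus empty vector ran from -0.18 for Gimap1 to 0.72 for Gimap4. For Gimap4 and Gimap8 (0.60) all mutant libraries lay above all empty vector libraries, and for the other members the groups overlapped.

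The sequences upstream of 2 Gimap genes and of Spen are shown because the Gimap genes rose together and because TGGGAA is the core of the site that RBPJ binds. They are the 250 bases before the annotated start, from RefSeq on GRCm38.p6, read 5′ to 3′ on the strand of the gene, with any TGGGAA or its reverse complement TTCCCA in capitals.
Gimap4, chr6:48684328-48684577, plus strand: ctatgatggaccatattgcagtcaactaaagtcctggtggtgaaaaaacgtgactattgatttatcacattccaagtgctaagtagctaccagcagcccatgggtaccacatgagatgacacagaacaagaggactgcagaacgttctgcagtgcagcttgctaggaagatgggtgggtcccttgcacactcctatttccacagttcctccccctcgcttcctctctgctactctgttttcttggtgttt
Gimap6, chr6:48708245-48708494, minus strand: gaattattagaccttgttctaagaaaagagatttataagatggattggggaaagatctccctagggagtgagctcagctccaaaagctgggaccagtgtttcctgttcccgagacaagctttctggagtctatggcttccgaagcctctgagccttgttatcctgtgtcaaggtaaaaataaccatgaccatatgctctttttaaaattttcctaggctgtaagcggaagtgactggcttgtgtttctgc
Spen, chr4:141538598-141538847, minus strand: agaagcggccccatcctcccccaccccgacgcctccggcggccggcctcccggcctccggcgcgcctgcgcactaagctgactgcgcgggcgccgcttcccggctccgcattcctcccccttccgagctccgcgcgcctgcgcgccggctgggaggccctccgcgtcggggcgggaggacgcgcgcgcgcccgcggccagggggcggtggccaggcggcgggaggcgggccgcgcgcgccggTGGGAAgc
Both strands were searched for TGGGAA in windows from 250 bases before to 50 after each start. The 7 tested Gimap genes had 8 windows, 0 of which held it, and the Spen window held it 1 time, starting 8 bases before the start site. Among other genes that were higher, Notch1, Lgmn, Jag1, Gzmb and L3mbtl3 had no match, while Casp4, Gbp7, Serpinb6b and 1 window of Tnfrsf9 had a match. Fat1 and Fam50b, which were lower, also had a match in at least 1 window. Of the windows of all tested genes, 22.6% held it. Windows were found for 72.7% of the genes that were higher, 72% of those that were lower and 78.7% of all genes tested. TGGGAA was in 24.1% of the windows of the higher genes and 19.6% of those of the lower genes. These shares leave out genes without a window and were not tested, so nothing is read from them. A match describes letters in a window and is not a measured site.

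**Figure D2:**
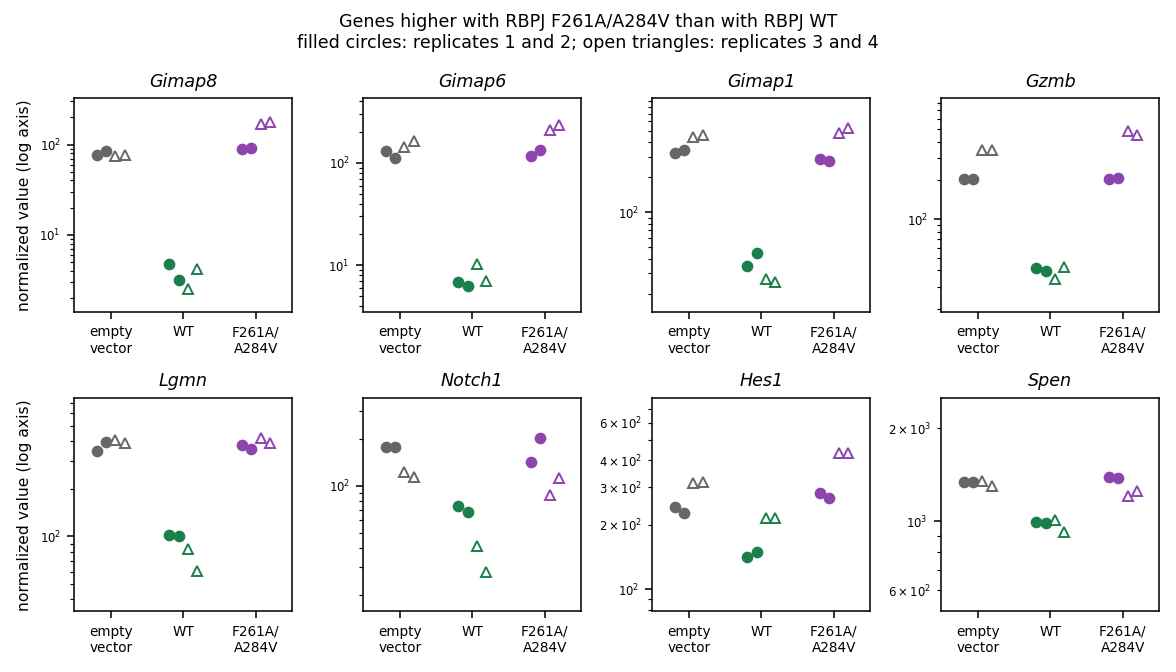
Normalised values (log axis) of 8 genes called higher with RBPJ F261A/A284V, in the 4 libraries of each group; filled circles are replicates 1 and 2 and open triangles replicates 3 and 4. All mutant libraries lie above all RBPJ WT libraries in each panel; Gimap8 has RBPJ WT values of 4.78, 3.17, 2.55 and 4.22 and mutant values of 88.1, 92.6, 168 and 179.

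Of 29 T cell identity genes listed, 24 were tested, 3 were higher and 1 was lower, where 1.91% of all genes tested were called in either direction, and the median was 0.03. Cd4, the coreceptor for MHC class II, stood at 188, 200.2, 124 and 117 with RBPJ WT and at 76.5, 88.1, 18.5 and 20.6 with the mutant. It was lower in every mutant library, and lowest in replicates 3 and 4. The log2 difference was -1.87 (SE 0.198, adjusted p 4.87e-06). Empty vector values were 121, 143, 57.5 and 62.7, and the mutant was also below the empty vector, by -1.03 (adjusted p 0.0464).

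Cd6, a surface receptor that tunes T cell activation, stood at 6.83, 10.8, 12.7 and 14.1 with RBPJ WT and at 24.9, 34.9, 80.1 and 82.3 with the mutant. The groups were apart, at a log2 difference of 2.03 (SE 0.237, adjusted p 1.89e-05). Cd28, the main costimulatory receptor, stood at 251, 234, 149 and 179.9 and 358, 351, 217 and 225, a difference of 0.51 (adjusted p 0.00173). Its groups overlapped across the sets and were apart within each.

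Activation and cytokine genes were tested for 17 of 25 listed members, with a median of 0.1. Of the 17, 1 was higher and none was lower, and over all genes tested 1.05% were higher. The one that was higher was Tnfrsf9, the costimulatory receptor 4-1BB, at 607, 591, 992 and 1053 with RBPJ WT and 754, 688, 1495 and 1477 with the mutant. Values were higher in replicates 3 and 4 in both groups, mutant libraries were above RBPJ WT within each set, and the log2 difference was 0.42 (SE 0.0675, adjusted p 0.000822). Without RBPJ F261A/A284V replicates 3 and 4 the adjusted p was 0.0597.

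Cytotoxic granule genes were tested for 8 of 18 listed members, with a median of 0.03. Of the 8, 2 were higher and none was lower, and over all genes tested 1.05% were higher. Gzmb, the serine protease granzyme B of killer cells, stood at 41.6, 39.3, 34.4 and 42.2 with RBPJ WT and at 206, 209, 482 and 454 with RBPJ F261A/A284V. All mutant libraries were above all RBPJ WT libraries, and those of replicates 3 and 4 were the highest. The log2 difference was 2.98 (SE 0.174, adjusted p 3.77e-10), and the empty vector libraries held 206, 204, 344 and 347. Serpinb6b, which encodes a protease inhibitor, stood at 13.7, 15.8, 11.5 and 1.41 and 35.6, 37.4, 49.3 and 52.9, a difference of 2.25 (adjusted p 0.00859). Its adjusted p was 0.495 without RBPJ F261A/A284V replicates 3 and 4. Perforin (Prf1) and Nkg7, other granule genes of killer cells, were below the limit for testing, as were Gzmc to Gzmg.

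Among chemokine, homing and adhesion genes, 18 of 27 listed were tested, with a median of 0.03. Of the 18, 2 were higher and 2 lower, where 1.91% of all genes tested were called in either direction. Ccr2, the receptor for the chemokine CCL2, stood at 417, 407, 131 and 135 with RBPJ WT and at 118, 108, 18.5 and 10.3 with the mutant. It fell within each set, and the groups did not overlap, although RBPJ WT replicate 3 lay close above mutant replicate 1. The log2 difference was -2.51 (SE 0.21, adjusted p 1.38e-07), and the empty vector libraries held 95.7, 111, 15.1 and 22.9. Cxcr6, the receptor for CXCL16 and the next tested gene on the chromosome, stood at 181, 208, 131 and 146 and 96.1, 112, 72.4 and 89.7, a difference of -0.89 (adjusted p 0.00159).

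In the same list Itgam and Itgb3 were higher. Itgam, the integrin alpha M chain better known from myeloid cells, stood at 13, 20.9, 12.7 and 8.43 with RBPJ WT and 34.7, 42.5, 21.6 and 22.1 with the mutant, a difference of 1.05 (adjusted p 0.0371). Itgb3, the integrin beta 3 chain, stood at 665, 719.8, 494 and 476 and 767, 769, 812 and 888, a difference of 0.46 (adjusted p 0.00683). In both genes the mutant libraries were all above the RBPJ WT libraries. The Itgam call was lost when any of 5 samples was left out (adjusted p 0.0688 to 0.363), and the Itgb3 call without RBPJ F261A/A284V replicates 3 and 4 (0.554).

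Markers of other cells were near 0 with few exceptions. Summed values over 5 B cell markers were 1.27 to 3.41 in RBPJ WT and 0 to 2.67 in the mutant, with Ms4a1 and Pax5 at 0 in all 8 libraries. NK markers summed to 0 to 2.73 and 1.47 to 4.62, and stroma markers to 0 to 1.37 and 0 to 0.89. Myeloid markers summed to 136 to 158 in RBPJ WT and 155 to 225 in the mutant, nearly all of it from Cd68 (108 to 199) and Lyz2 (15.1 to 25.5), while Csf1r, Adgre1, Cd14 and Spi1 stayed at or below 3.56. In the longer lists, 0 of 11 B cell genes were tested. Of 14 myeloid genes 4 were tested and 1, Itgam, was higher, at a median of 0.12, where 1.91% of all genes tested were called. Of 9 NK and innate lymphoid genes 1 was tested, Tbx21, at a log2 difference of -0.01 (adjusted p 0.986). Of 11 stroma and endothelial genes 2 were tested and 1, Pecam1, was lower, at -0.28 (adjusted p 0.0132, or 0.571 without RBPJ F261A/A284V replicates 3 and 4); the median was -0.07.

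**Figure D3:**
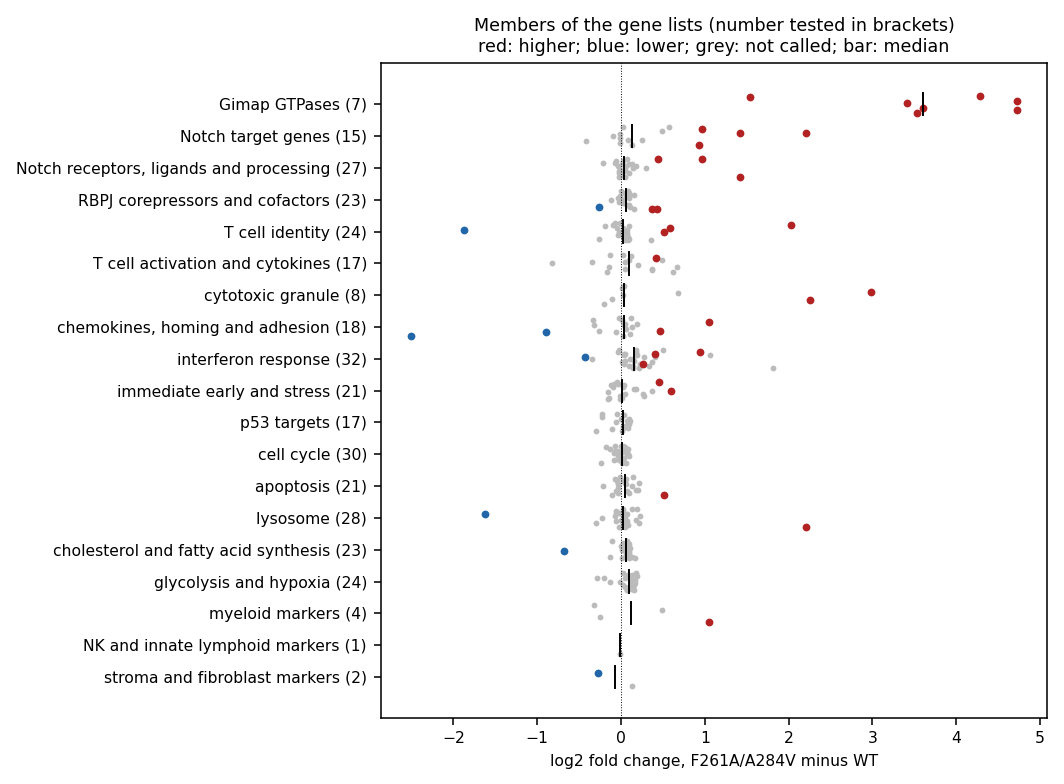
Fitted log2 fold changes of RBPJ F261A/A284V minus RBPJ WT for the tested members of each gene list, 1 point per gene, with the number tested in brackets and a bar at the median. Red points were called higher, blue points lower and grey points neither; the Gimap list has a median of 3.6, and the medians of the other lists lie between -0.07 and 0.15.

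The remaining large rises had no common list. Art2a-ps, a pseudogene of an ADP-ribosyltransferase of T cells, stood at 0, 1.27, 0 and 2.81 with RBPJ WT, 4 reads over the 4 libraries, and at 23.1, 28.5, 83.2 and 116 with the mutant. It had the largest fitted log2 difference of the genes that were higher, 4.92 (SE 0.433, adjusted p 3.1e-07), and its size depends on the pseudocount. Art2a-ps passed the filter only through its mutant libraries. Ncald, a neuronal calcium sensor, stood at 58, 67.8, 45.9 and 40.8 and 142, 148, 165 and 134, a difference of 1.48 (adjusted p 6.93e-07). Lax1, an adaptor that dampens antigen receptor signalling, stood at 49.1, 48.8, 17.8 and 15.5 and 81.9, 89.4, 60.1 and 91.1, a difference of 1.45 (adjusted p 0.000455). Plce1, the phospholipase C epsilon, stood at 47.8, 73.5, 21.7 and 38 and 95.2, 126, 106 and 121, a difference of 1.38 (adjusted p 0.000737). The groups were apart in all 4 genes, which the rule that named them required. Without RBPJ F261A/A284V replicates 3 and 4, Lax1 had an adjusted p of 0.0634 and Plce1 of 0.0896. Ott, an X-linked gene of a family of near-identical copies, had values equal to those of Gm15085, so its reads cannot be placed; its difference was 1.54 (adjusted p 0.0113), and the call was lost without RBPJ F261A/A284V replicate 2 (0.0597) or replicates 3 and 4 (0.523).

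Grb10, Fat1 and Adam12 were among the large falls outside the lists. Grb10, an adaptor that inhibits insulin receptor signalling, stood at 375, 391, 241 and 276 with RBPJ WT and at 142, 152, 32.3 and 39.7 with the mutant. All mutant libraries were below all RBPJ WT libraries, and replicates 3 and 4 were lowest, close to the empty vector values of 136, 126, 38.3 and 47.4. The log2 difference was -2.13 (SE 0.2, adjusted p 7.51e-07). Fat1, an atypical cadherin, stood at 75.1, 79.8, 49.7 and 56.2 and 15.1, 26, 20.0 and 19.1, a difference of -1.66 (adjusted p 0.000189). Adam12, a membrane metalloprotease, stood at 263, 239, 303 and 273 and 168, 201, 100.1 and 103, a difference of -0.93 (adjusted p 0.0015). Both were lower in all mutant libraries, but for these genes and Grb10 groups without overlap were a condition of being named. Adam12 had an adjusted p of 0.0986 without RBPJ F261A/A284V replicates 3 and 4, when its difference was -0.51.

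The 3 tested genes of the adhesion G protein-coupled receptors of the Adgrg family, which neighbour each other on chromosome 8, were all lower. Over all genes tested, 0.865% were lower. Adgrg3 stood at 416, 413, 555 and 568 with RBPJ WT and at 227, 257, 248 and 315 with the mutant. Adgrg1 stood at 169, 175, 247 and 214 and 95.2, 97.7, 81.6 and 77.9, and Adgrg5 at 277, 279, 206 and 247 and 185, 204, 87.8 and 80.8. None of the 3 had overlapping groups, which the rule that named them required. The log2 differences were -0.90 (adjusted p 1.1e-07), -1.17 (adjusted p 8.2e-06) and -0.95 (adjusted p 0.000315). Empty vector libraries held 323, 333, 376 and 388 for Adgrg3, all between the 2 RBPJ groups of their set, and the mutant was below the empty vector by -0.42 (adjusted p 0.021).

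Sgsh, the lysosomal heparan sulfate sulfatase, stood at 155, 193, 168 and 181 with RBPJ WT and at 52.5, 65.3, 44.7 and 60.3 with the mutant. The difference of -1.63 (SE 0.135, adjusted p 1.38e-07) was alike in both sets, at -1.56 and -1.72. Card14, a scaffold of NF-kB signalling and the tested gene next to Sgsh, stood at 47.1, 55.1, 52.2 and 52 and 16.9, 24.7, 12.3 and 14.7, a difference of -1.55 (adjusted p 0.000425). Lysosome genes as a list did not share a direction. Of 32 listed, 28 were tested, with Lgmn higher, Sgsh lower (1.91% called over all genes tested) and a median of 0.02.

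Trf, the iron carrier transferrin, stood at 102, 122, 219 and 164 with RBPJ WT and at 42.7, 64.7, 77 and 67.6 with the mutant, and at 107, 108, 139.6 and 138 with the empty vector. The mutant libraries were the lowest of the 3 groups, with a difference of -1.26 from RBPJ WT (adjusted p 3.49e-05) and of -0.94 from the empty vector (adjusted p 0.0105). Fam50b stood at 148, 151, 132 and 118 with RBPJ WT, at 69.4, 83.1, 47.7 and 51.5 with the mutant and at 129.8, 143, 105 and 93.2 with the empty vector. It showed the same order, with differences of -1.15 (adjusted p 1.41e-05) and -0.88 (adjusted p 0.00555). Over all genes, 11 differed between mutant and empty vector (0.0952% of those tested) and 171 between RBPJ WT and empty vector (1.48%); these comparisons share their samples with each other and with the main one.

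Cyp26b1, which degrades retinoic acid, stood at 341, 361, 312 and 289.6 with RBPJ WT and 211, 244, 108 and 132 with the mutant, a difference of -0.97 (adjusted p 2.34e-05). Smad7, an inhibitor of TGF-beta signalling, stood at 48.5, 47.5, 56 and 84.3 and 22.2, 29.8, 37 and 29.4, a difference of -0.95 (adjusted p 0.0113). Fcgrt, the neonatal Fc receptor, stood at 83.9, 71.6, 51 and 60.4 and 42.7, 50.7, 24.6 and 23.5, a difference of -1.04 (adjusted p 0.0167). All mutant libraries were below all RBPJ WT libraries in these genes, which the rule that named them required. The Smad7 call was lost without RBPJ WT replicates 1 and 2 (adjusted p 0.0528) or RBPJ F261A/A284V replicates 3 and 4 (0.229), and the Fcgrt call without any 1 of the mutant samples (0.0592 to 0.175).

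**Figure D4:**
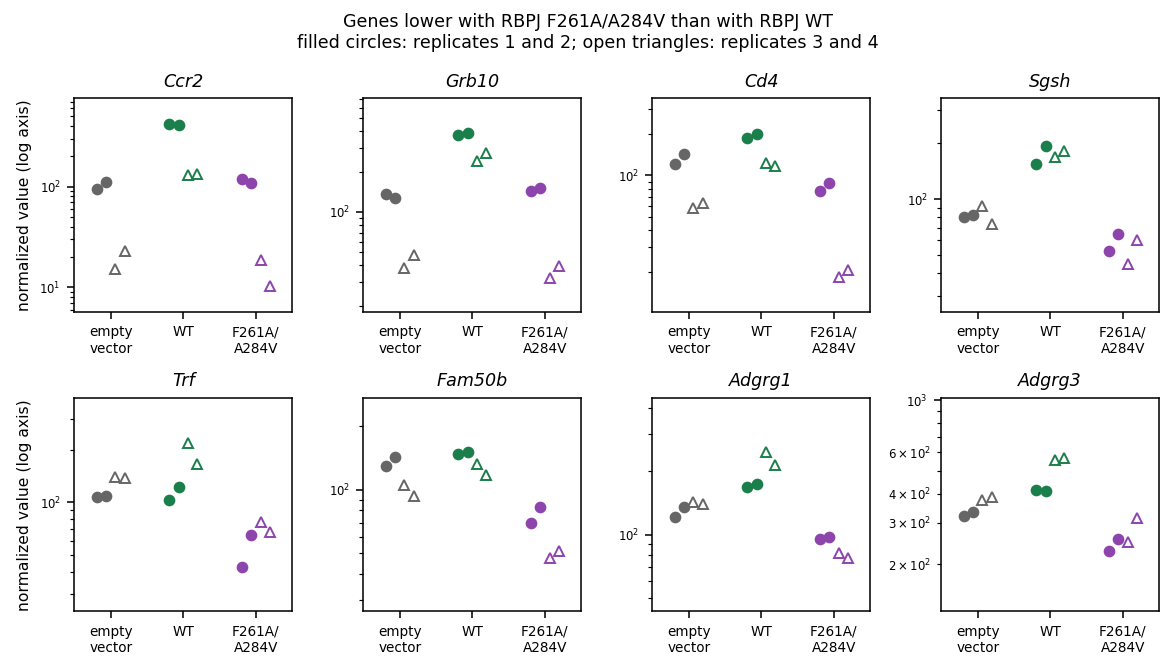
Normalised values (log axis) of 8 genes called lower with RBPJ F261A/A284V, in the 4 libraries of each group; filled circles are replicates 1 and 2 and open triangles replicates 3 and 4. All mutant libraries lie below all RBPJ WT libraries in each panel, which the rule for the largest falls required. For Cd4, Sgsh, Trf, Fam50b, Adgrg1 and Adgrg3 they also lie below the empty vector libraries of the same set.

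Interferon response genes were tested for 32 of 36 listed members, with a median of 0.15. Of the 32, 3 were higher and 1 was lower, where 1.91% of all genes tested were called. The highest log2 difference in the list, 1.81, belonged to a gene that was not called. Ifih1, the sensor of double-stranded RNA known as MDA5, stood at 117, 114, 54.8 and 43.6 with RBPJ WT and 167, 181, 112 and 129 with the mutant. Mutant replicate 3 lay just below RBPJ WT replicates 1 and 2, the other mutant libraries were higher, and the log2 difference was 0.94 (SE 0.146, adjusted p 0.000577). Parp14, a mono-ADP-ribosyltransferase, differed by 0.41 (adjusted p 0.0173) and Gbp7, a guanylate-binding protein, by 0.26 (adjusted p 0.0183). Usp18, which removes the ubiquitin-like ISG15 from proteins, was lower, at 255, 258, 374 and 356 against 214, 214, 251 and 231, a difference of -0.44 (adjusted p 0.00384). All 4 calls were lost without RBPJ F261A/A284V replicates 3 and 4, at adjusted p 0.0671 to 0.515; that of Gbp7 was also lost without RBPJ WT replicate 3 (0.0827) and that of Parp14 without RBPJ F261A/A284V replicate 2 (0.0823).

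Immediate early and stress genes were tested for 21 of 24 members, with a median of 0.01. Of the 21, 2 were higher and none was lower, and over all genes tested 1.05% were higher. Fosl2, a partner of Jun proteins in AP-1, stood at 1094, 1108, 1841 and 1945 with RBPJ WT and 1390.1, 1262, 2953 and 2918 with the mutant. The mutant was above RBPJ WT within each set, by 0.27 and 0.63, and the fitted difference was 0.46 (adjusted p 0.000782, or 0.0802 without RBPJ F261A/A284V replicates 3 and 4). Fosl2 was also above the empty vector with the mutant, by 0.46 (adjusted p 0.00873). Egr1, a transcription factor induced by receptor signalling, differed by 0.59 (adjusted p 0.0327), a call lost when any of 5 samples was left out (adjusted p 0.0557 to 0.413).

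Lists of cell cycle, p53 and glycolysis genes held no call; with 1.91% of all genes tested called, lists this short can hold none, and nothing is read from it. None of 30 tested cell cycle genes passed the test, with a median of 0.01 and a range of -0.24 to 0.09; the smallest p-values belonged to E2f2 (-0.24, adjusted p 0.0895) and Ccne2 (-0.18, adjusted p 0.51). None of 17 tested p53 targets of 23 listed passed, at a median of 0.02, with Gadd45a at -0.23 (adjusted p 0.154) and Bbc3 at -0.23 (adjusted p 0.166). None of 24 tested glycolysis and hypoxia genes passed, at a median of 0.1, with Car9 at -0.28 (adjusted p 0.0923) and Slc2a3 at -0.20 (adjusted p 0.191). With all 12 libraries kept apart, E2f2, Gadd45a, Bbc3, Car9 and Slc2a3 passed the test, at differences of -0.21 to -0.28.

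Of 26 apoptosis genes, 21 were tested and 1 was higher (1.05% over all genes tested), at a median of 0.05. It was Casp4, the inflammatory caspase that senses lipopolysaccharide in mouse cells. Its values were 230.0, 218, 195 and 202 with RBPJ WT and 260.8, 262, 340.3 and 329 with the mutant. The groups were apart, with a difference of 0.51 (adjusted p 0.00453, or 0.311 without RBPJ F261A/A284V replicates 3 and 4). Of 25 cholesterol and fatty acid synthesis genes, 23 were tested and 1 was lower (0.865% over all genes tested), at a median of 0.06. It was Abcg1, a cholesterol exporter, at 319, 339.6, 289 and 298 with RBPJ WT and 226, 266, 163 and 146 with the mutant, a difference of -0.69 (adjusted p 0.000315).

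Differences were also taken within each set of replicates. Within replicates 1 and 2 the median size over the 221 called genes was 0.43 on the log2 scale, and within replicates 3 and 4 it was 0.78; all 221 had the same sign in both, which the joint fit favours. With near-identical libraries averaged, RBPJ WT was 1 sample in replicates 1 and 2 and the mutant 1 sample in replicates 3 and 4. Tests within a set therefore had 1 and 2 residual degrees of freedom, and that of the difference between the sets had 3; each takes the lone sample to vary like the other samples of its fit, and counts from fits of unequal size do not compare the sets. Taken alone, replicates 1 and 2 gave 43 higher genes (0.372%) and 41 lower (0.355%), and replicates 3 and 4 gave 111 (0.96%) and 85 (0.735%). The difference between the sets was itself past the test for 7 genes (0.0606% of those tested), while 421 had an unadjusted p under 0.05. For Gzmb the log2 difference was 2.33 in replicates 1 and 2 and 3.59 in replicates 3 and 4 (adjusted p of the difference 0.0224), for Gimap1 2.79 and 4.22 (0.00286), and for Grb10 -1.38 and -2.80 (0.0217). No gene passed this test after quantile scaling, 24 passed with edgeR and 67 with all 12 libraries kept apart. The 2 sets also differed in depth, and the part of depth in these values was not tested.

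**Figure D5:**
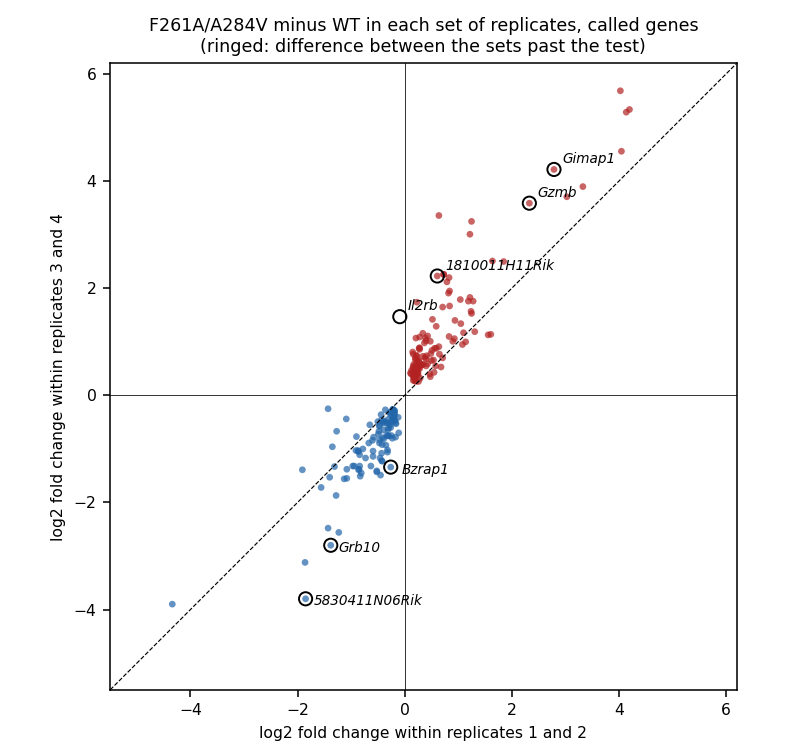
Log2 fold change of RBPJ F261A/A284V minus RBPJ WT within replicates 1 and 2 (horizontal) and within replicates 3 and 4 (vertical) for the 221 called genes and Il2rb; the dashed line marks equal values. Ringed genes are the 7 whose difference between the sets passed the test, among them Gzmb at 2.33 and 3.59; most points lie farther from 0 on the vertical axis.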

How the data were processed

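RNA was sequenced from ribosome-depleted, stranded total RNA libraries, per the labels' protocols. Per the submitters' processing notes, the authors used TopHat2 2.1.1, DESeq2 1.24.0 and the build mm9; no source used here names the read counter, the gene annotation or whether strand was counted. The deposited values behave as a signal the authors made by dividing each library's gene counts by a size factor of that library: divided by what 1 read is worth, 100% of them came out whole, to within 0.1 read. Reads of overlapping genes and of families whose copies are nearly the same cannot be placed with certainty; 58 tested genes had values equal to another gene's.

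From these values, log2(value + 1) was fitted in R 4.3.3 by the limma-trend method of limma 3.58.1, with 2-sided tests, to 9 samples of 3 groups, near-identical libraries averaged, with terms for group and for the set of replicates (1 and 2, or 3 and 4). Calls needed an adjusted p (Benjamini-Hochberg, over the 11558 genes tested) below 0.05; every adjusted p is from this test unless another tool is named. An interaction of group and set tested whether the difference changed between the sets. Since RBPJ WT has 1 sample of the first set and 2 of the second, and the mutant 2 and 1, fitted differences, not differences of means, are given. The set term takes the set effect to be alike in all 3 groups; where it was not, a fitted difference can lie outside both within-set values, as for Rbpj. Fold changes on this scale understate those of low genes. The script was tested on simulated data.

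Same-numbered libraries of different groups correlated at 0.57 to 0.82 in their deviations from the group means, and other-numbered libraries of the same set at 0.59 to 0.84, so the numbers pair libraries through the set. Named genes are Rbpj and L3mbtl3, the 15 largest rises and 15 largest falls with a mean of at least 50 in 1 group and no overlap between groups (predicted gene models aside), called members of the gene lists (or 2 with the smallest p where a list of several tested genes had none), and genes whose difference changed between the sets. A result for 1 named gene is not reported here. The comparison, members and lists were chosen with earlier results of these data known. Alternatives were all 12 libraries kept apart, no set term, the replicate block, only the 6 samples of both forms, pseudocounts, filters, quantile scaling, edgeR 4.0.16 and DESeq2 1.42.0 on recovered reads, each set alone and each sample left out. Upstream sequences came from RefSeq (GRCm38.p6) and were matched by symbol or gene ID.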

Additional observations from a re-analysis of the deposited data

Results flagged for a closer look

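For 7 genes the difference between RBPJ F261A/A284V and RBPJ WT changed between the 2 sets of replicates, by an interaction test in limma with adjustment over all genes. The test had 3 residual degrees of freedom, with 1 sample of RBPJ WT in the first set and 1 of the mutant in the second. The log2 difference in replicates 3 and 4 minus that in replicates 1 and 2 was 1.42 for Gimap1, 1.25 for Gzmb, -1.43 for Grb10, -1.08 for Bzrap1, -1.95 for 5830411N06Rik, 1.62 for 1810011H11Rik and 1.56 for Il2rb. Adjusted p-values ran from 0.00241 for Bzrap1 to 0.0224 for Gzmb.

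Il2rb, the beta chain of the interleukin-2 receptor, is the one of the 7 that was not called in the comparison of the 2 forms. It stood at 96.9, 104, 79 and 57.6 in RBPJ WT replicates 1 to 4 and at 94.3, 94.5, 174 and 204 in RBPJ F261A/A284V. The groups were level in replicates 1 and 2, at a log2 difference of -0.09, and apart in replicates 3 and 4, at 1.47. Bzrap1 stood at 885, 828, 1024 and 1057 with RBPJ WT and at 674, 762, 433 and 388 with the mutant, and was lower with the mutant in both sets, at a log2 difference of -0.26 and then -1.34. The gene model 5830411N06Rik stood at 128, 147, 172 and 167 and 32, 43.8, 10.8 and 11.8, and 1810011H11Rik at 70.3, 67.8, 45.9 and 35.1 and 99.7, 113, 191 and 194. In 1810011H11Rik and 5830411N06Rik the groups were apart in both sets and farther apart in replicates 3 and 4. In the comparison of the 2 forms, 2 calls were lost without RBPJ F261A/A284V replicates 3 and 4. They were Bzrap1 (-0.38, adjusted p 0.214) and 1810011H11Rik (0.84, adjusted p 0.0801).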

How the results depend on the processing

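Counts are given as higher and lower with RBPJ F261A/A284V. With all 12 libraries kept apart and the set term they were 300 and 294, and with the replicate block (the paired fit) 288 and 2.6e2 (549 genes in all); both kept all 221 genes. Without the set term they were 20 and 9 over 12 libraries and 10 and 2 over 9 samples. Without a filter on low values they were 66 and 58, among more genes tested, and in replicates 1 and 2 alone 43 and 41. With edgeR 163 were higher and 165 lower, with 220 of the 221 kept. Leaving out 1 sample gave 29 to 139 higher and 38 to 97 lower, the lowest counts without RBPJ F261A/A284V replicates 3 and 4, when 65 of the 221 were kept. Genes whose difference changed between the sets numbered 67 with 12 libraries, 24 with edgeR and 0 with quantile scaling (390 at an unadjusted p under 0.05).

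Of 1357 values of the 65 named genes, 1144 kept direction and side of the threshold, 180 lost the call, 17 gained one and 16 changed sign, none of these in a called gene. Gimap1, Gimap4, Gimap5, Gimap6, Gimap7, Gimap8, Gimap9, Gzmb, Lgmn, Ncald, Sgsh and Adgrg1 kept their call under all 21 alternatives. Sign changes were those of Rbpj (-0.05 to 0.15 on leaving out 1 sample: -0.03 without RBPJ WT replicates 1 and 2, -0.05 without RBPJ F261A/A284V replicates 3 and 4), Ccne2 (0.06 over 9 samples without the set term, 0.00 in replicates 1 and 2), Il2rb (-0.09 in replicates 1 and 2) and Tbx21 (-0.23 to 0.1 on leaving out 1 sample). Tbx21 was at 0.02 with 12 libraries (with or without the set term or the block) and with 6 samples, 0.26 over 9 samples without the set term, 0.12 with edgeR, 0.06 with DESeq2, 0.24 in replicates 1 and 2, and 0.03, 0.1 and 0.07 without RBPJ F261A/A284V replicate 1, RBPJ WT replicate 3 and RBPJ F261A/A284V replicates 3 and 4. For Rbpj each sample left out was the only one of its form in its set; otherwise the cause was not tested. Depth limits genes at low values: 1 read was worth more in replicates 3 and 4.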

Other observations

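Gene families outside the lists were picked after their values were seen, so their counts are descriptions. Of 11 tested guanylate-binding protein genes, GTPases induced by interferon, 6 were higher with RBPJ F261A/A284V and none was lower. The 6 were Gbp4, Gbp6, Gbp7, Gbp8, Gbp9 and Gbp10. The median log2 difference of the family was 0.52, and over all genes tested 1.05% were higher. Gbp9 stood at 150.2, 134, 79 and 60.4 in RBPJ WT replicates 1 to 4 and at 164, 199.7, 171 and 141 with the mutant, and Gbp4 at 272, 279, 175 and 231 and 322, 342, 393 and 348. The mutant libraries were above those of RBPJ WT within each set for Gbp9 and across all 4 for Gbp4. The fitted differences were 0.75 for Gbp9 (adjusted p 0.00928) and 0.56 for Gbp4 (adjusted p 0.00859). In the same order, the differences were 0.34 and 0.27 in replicates 1 and 2, and 1.16 and 0.88 in replicates 3 and 4. These genes resemble one another in sequence, and how their reads were shared is not known.

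Of 7 tested neuropilin and plexin genes, receptors for semaphorins, 3 were lower, where 0.865% of all genes tested were lower. Plxnd1 leaned the other way, at a log2 difference of 0.72 (adjusted p 0.141), and was not called. Nrp1 stood at 296, 299.7, 75.2 and 85.7 with RBPJ WT and at 143, 167, 27.7 and 35.3 with the mutant, and Nrp2 at 283, 316, 129.9 and 136 and 128, 145, 49.3 and 39.7. Both were lower in replicates 3 and 4 whatever the form, and the mutant was below RBPJ WT within each set, by fitted differences of -1.18 (adjusted p 4.1e-05) and -1.35 (adjusted p 4.73e-07). Plxnc1 differed by -0.55 (adjusted p 0.000444). Of 7 tested C-type lectin genes of the Clec series, Clec12a (-1.15), Clec4d (-0.59) and Clec4e (-0.52) were lower.

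Skil, an inhibitor of TGF-beta signalling that the pathway itself induces, stood at 206, 206, 233 and 337 with RBPJ WT and 116, 161, 129 and 123 with the mutant, a difference of -0.87 (adjusted p 0.00123). Tgfb3, a ligand of the pathway, stood at 143, 157, 122 and 139 and 219.8, 248, 265 and 226, a difference of 0.81 (adjusted p 0.000108). Skil was below and Tgfb3 above RBPJ WT in all mutant libraries. Of 8 tested SMAD and SKI genes only Skil and Smad7 were called, and of 4 tested TGF-beta ligands and receptors only Tgfb3. Over all genes tested, 1.91% were called.

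Igsf3, an immunoglobulin superfamily gene, had the lowest fitted difference of any called gene and was too low for the rule on named genes. It stood at 58, 77.9, 15.3 and 12.7 with RBPJ WT and at 1.78, 3.17, 0 and 0 with the mutant, with groups apart and a difference of -4.19 (adjusted p 1.49e-05). The mutant libraries held 7 reads in all, so the size of the difference depends on the pseudocount. Igsf3 passed the filter only through its RBPJ WT libraries.

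In RefSeq order, 37 of the 221 called genes (1.91% of those tested) stood in 13 runs of neighbouring tested genes called in the same direction. How many runs the same number of calls would form in a random order was not worked out, so the count is a description. In 1 of the runs, Ott, Gm15093 and Gm15085 on chromosome X, Ott and Gm15085 had equal values, so it is not made of separate measurements. The longest held the 7 Gimap genes on chromosome 6 and, on chromosome 5, Abcg3 with Gbp8, Gbp9, Gbp4, Gbp10 and Gbp6. The 3 Adgrg genes on chromosome 8 formed the longest run of genes that were lower. Cxcr6 and Ccr2 on chromosome 9, and Card14 and Sgsh on chromosome 11, were pairs that fell.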
